A study of Mus musculus with 9 samples.

Results

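Hox genes encode homeodomain transcription factors that lie in clusters in the mouse genome, and the genes of a cluster are numbered by their order along the chromosome. Hoxa and Hoxb genes are active in blood stem and progenitor cells, Hox proteins bind DNA with TALE cofactors (Meis and Pbx proteins), and the MLL histone methyltransferase complex holds Hox genes active. Genes of the A and B clusters with the same number (paralogs) descend from a shared ancestral gene and encode similar proteins. The 10 genes described here are Hoxa5, Hoxa7, Hoxa9 and Hoxa10 of the A cluster and Hoxb2, Hoxb3, Hoxb4, Hoxb5, Hoxb6 and Hoxb7 of the B cluster. They were chosen by gene symbol from 20635 symbols in the deposited expression table, where they have 25 transcript models.

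RNA was sequenced from femur and tibia marrow of 10-week-old C57BL/6J mice, sorted on a stem cell gate called KSL CD34- (c-Kit positive, Sca-1 positive, negative for lineage markers and for CD34). The 9 libraries come from 3 populations with 3 libraries each, named Parent for the gate alone, Syndecan-2- and Syndecan-2+ for cells of that gate without and with the cell surface proteoglycan syndecan-2. The labels name no transgene or treatment, each replicate held 10000 sorted cells, the protocols name male mice while the series text names both sexes, and no label says whether replicates came from separate mice or from pools, so that the p-values below cover the spread of these libraries and no more. The comparison asks how the gate divides by syndecan-2.

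Values are in CPM, read counts scaled to library size, per gene, and 1 CPM stood for 15.5 to 20.6 reads, so that 3 reads, used here as the detection floor, equal 0.146 to 0.194 CPM. Fold changes are on the log2(CPM + 1) scale, which understates the change of low genes. They were tested with limma over 13997 genes that reached 1 CPM in at least 3 libraries, and a gene was called at a Benjamini-Hochberg (BH) adjusted p under 0.05. Of the 10 genes, 8 passed that minimum. Hoxb6 and Hoxb7 did not, and Hoxb2 passed only through its 3 Syndecan-2+ libraries, where it is high, so that its call is partly built into the minimum. Sdc2, which encodes syndecan-2, averaged 0.332 CPM in Syndecan-2- cells, 1.75 in Parent cells and 4.58 in Syndecan-2+ cells, with no overlap between populations. Of 3 markers considered for the gate, Kit had a mean of 164 CPM in Syndecan-2- and 259 in Syndecan-2+ and was called higher. Ptprc had 116 and 88.4 and was called lower. Ly6a (Sca-1) had 5.46 and 7.54 and was not called (BH-adjusted p from limma 0.0627). With the replicate number as a block Ly6a was called higher. Cd34 mRNA was present in all populations of this CD34- gate, at a mean of 203 CPM for Syndecan-2-, 174 for Parent and 44.6 for Syndecan-2+.

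The Hoxa genes lie on chromosome 6 (reverse strand) within 39101 bases, and the Hoxb genes on chromosome 11 (forward strand) within 67390 bases, both in build GRCm38. RefSeq promoters (250 bases before the start and 50 after it, build GRCm38.p6) were at hand for 5 of the 10 genes. The following 3 belong to Hoxa9, Hoxa10 and Hoxb4, the best measured genes that were lower (Hoxa9) and higher (Hoxa10 and Hoxb4) in Syndecan-2+ cells, and are printed 5′ to 3′ on the gene's strand with each CG dinucleotide in capitals. The protein that Kmt2a encodes, MLL, binds unmethylated CG, and methylation was not measured here.
Hoxa9, chr6:52227321-52227620: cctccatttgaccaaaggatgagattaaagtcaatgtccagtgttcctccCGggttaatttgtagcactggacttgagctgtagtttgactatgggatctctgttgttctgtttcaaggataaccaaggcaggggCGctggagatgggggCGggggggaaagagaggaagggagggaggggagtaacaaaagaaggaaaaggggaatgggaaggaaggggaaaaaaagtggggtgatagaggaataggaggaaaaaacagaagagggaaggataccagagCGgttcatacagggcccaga
Hoxa10, start nearer to Hoxa9, chr6:52234890-52235189: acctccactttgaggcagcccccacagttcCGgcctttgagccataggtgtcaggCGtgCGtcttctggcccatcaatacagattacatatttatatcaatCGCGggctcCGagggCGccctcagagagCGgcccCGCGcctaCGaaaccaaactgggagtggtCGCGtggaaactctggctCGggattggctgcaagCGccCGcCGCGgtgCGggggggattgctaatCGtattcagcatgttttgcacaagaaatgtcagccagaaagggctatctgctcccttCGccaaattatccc
Hoxb4, chr11:96318017-96318316: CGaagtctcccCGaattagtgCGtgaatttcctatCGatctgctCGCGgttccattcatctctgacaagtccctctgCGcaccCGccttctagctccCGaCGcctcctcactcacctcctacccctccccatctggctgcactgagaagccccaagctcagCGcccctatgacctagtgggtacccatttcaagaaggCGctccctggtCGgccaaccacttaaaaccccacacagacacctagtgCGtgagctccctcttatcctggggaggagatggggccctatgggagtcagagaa
The Hoxa9 promoter held 4 CG dinucleotides, the Hoxb4 promoter 14 and the Hoxa10 promoter 21. Of 32851 promoters of the same length, 94.6% held at least 1 CG and the median was 7, and 31.4% held fewer than that of Hoxa9 and 75.2% fewer than that of Hoxa10. The promoter of Hoxa7 had 9, that of Hoxa5 had 29 and the distal Hoxa10 start had 12. Neither the E-box CACGTG nor the Pbx and Hox composite motif TGATNNAT, searched on both strands, was found in the 6 promoters of these genes, against 7.15% and 8.85% of all promoters. A CCAAT box (CCAAT, both strands), present in 37.4% of all promoters, was found at the printed Hoxa10 start and in that of Hoxa5. These matches describe the letters of the windows and say nothing of a factor's binding.

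In Syndecan-2+ cells, Hoxb2, Hoxb3, Hoxb4 and Hoxb5 were higher than in Syndecan-2- cells, and so was Hoxa10, while Hoxa9, the most abundant of the 10 genes, was lower. Hoxa5 and Hoxa7 were not called. Of the 8 genes tested 5 were higher and 1 was lower, against a background in which 30% of all tested genes were called, 20.5% higher and 9.51% lower. The median log2 fold change of all tested genes was 0.10. With TMM rescaling this median was -0.01 and the calls over all genes divided into 1989 higher and 1994 lower, against 2874 and 1331 on the deposited scale. The 6 calls of these genes kept their direction under TMM rescaling and quantile normalization.

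**Figure D1:**
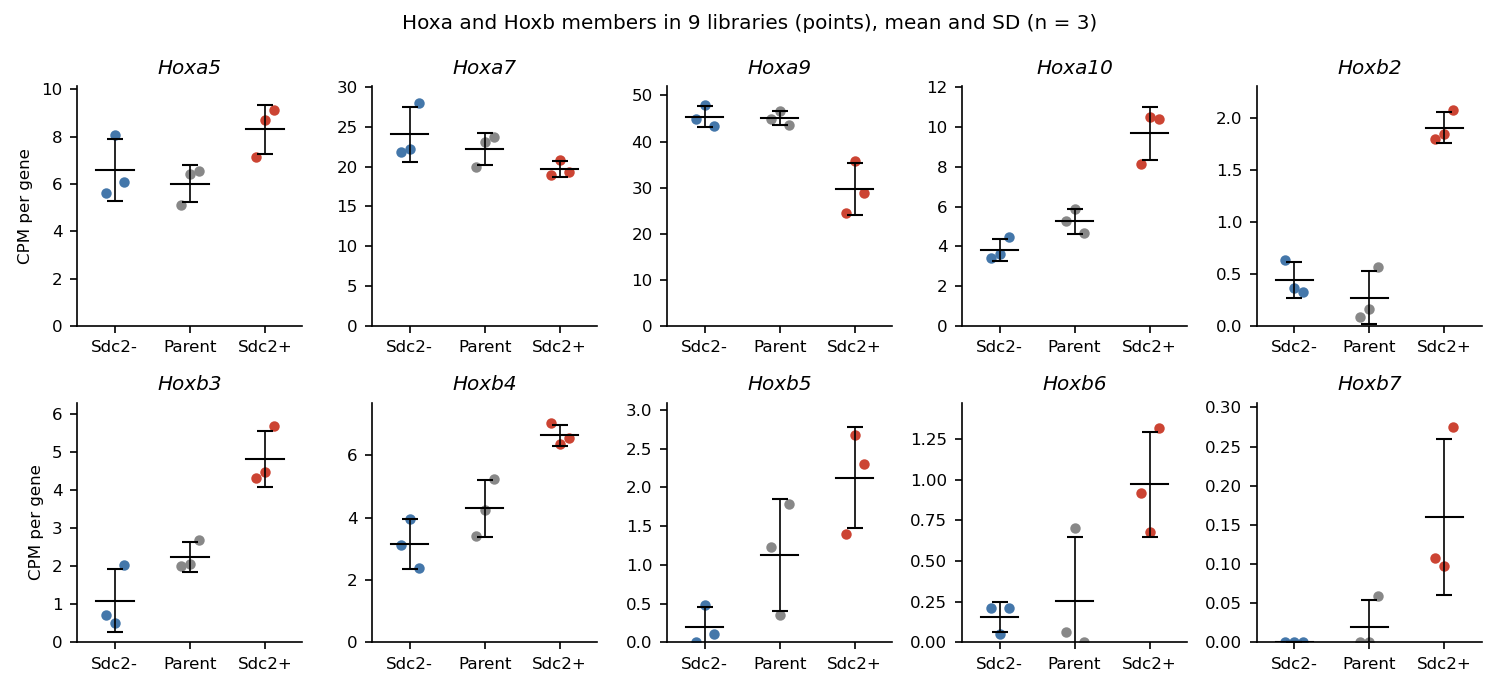
CPM per gene of the 10 genes, with 1 point per library, a line at the mean and the SD over 3 libraries of each population (Sdc2- for Syndecan-2-, Sdc2+ for Syndecan-2+). The Syndecan-2+ libraries of Hoxa10, Hoxb2, Hoxb3, Hoxb4 and Hoxb5 lie above all Syndecan-2- libraries, and those of Hoxa9, between 24.6 and 35.7 CPM, lie below the Syndecan-2- and Parent libraries.

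Hoxa9, which supports the growth of stem and progenitor cells and drives mouse leukemia together with Meis1, was listed at 44.8, 47.9 and 43.5 CPM in the Syndecan-2- libraries and at 44.9, 46.7 and 43.6 in Parent. In Syndecan-2+ it was listed at 24.6, 35.7 and 28.8 CPM. Every Syndecan-2+ library was below every other library, and Syndecan-2- and Parent overlapped. The fall from a mean of 45.4 ± 2.29 (SD, n = 3) to 29.7 ± 5.63 CPM was a log2 fold change of -0.61 (SE 0.10, BH-adjusted p from limma 0.000211). Against Parent the log2 fold change was -0.60 (adjusted p from limma 0.000476).

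Hoxa10 affects myeloid and megakaryocyte development in mice. Its models lie 107 bases from the noncoding model Hoxa9-004 and further from the coding Hoxa9 models. Hoxa10 was listed at 3.44, 3.61 and 4.47 CPM in Syndecan-2-, at 5.26, 5.88 and 4.65 in Parent and at 8.15, 10.5 and 10.4 in Syndecan-2+. The 3 populations did not overlap, with Parent in the middle, while of all tested genes 32% had no overlap between Syndecan-2+ and Parent and 18.1% none between Syndecan-2- and Parent. The mean rose from 3.84 ± 0.553 to 9.67 ± 1.32 CPM (SD, n = 3), a log2 fold change of 1.14 (SE 0.15, BH-adjusted p from limma 2.0e-05). Parent and Syndecan-2- differed by -0.37 on this scale and were not called apart (adjusted p from limma 0.281).

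Hoxa7 was listed at 21.9, 22.3 and 28.0 CPM in Syndecan-2-, at 20.0, 23.1 and 23.7 in Parent and at 18.9, 20.8 and 19.3 in Syndecan-2+. All Syndecan-2+ values were below those of Syndecan-2-, as 42.5% of tested genes also had groups without overlap in this comparison, and they overlapped Parent. The log2 fold change against Syndecan-2- was -0.27 (SE 0.11) and was not called (BH-adjusted p from limma 0.0684). It was called lower with the replicate number as a block (adjusted p from limma 0.0264), a setting with 35.6% of tested genes called, and also with TMM rescaling (-0.38, 0.0142), quantile normalization (-0.37, 0.0173) and without the first Syndecan-2- library (-0.33, 0.0486). Without the third Syndecan-2- library, the highest, the log2 fold change was -0.16 and was not called (adjusted p from limma 0.315).

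Hoxa5 was listed at 5.61, 8.08 and 6.10 CPM in Syndecan-2-, at 5.10, 6.41 and 6.55 in Parent and at 7.12, 8.69 and 9.11 in Syndecan-2+. The Syndecan-2+ libraries overlapped those of Syndecan-2- and lay above those of Parent. The log2 fold change was 0.30 (SE 0.16) against Syndecan-2- and 0.41 against Parent, and neither was called (BH-adjusted p from limma 0.171 and 0.0917). With the replicate block, under which 22.3% of tested genes were called, Hoxa5 was higher in Syndecan-2+ cells than in Parent (adjusted p from limma 0.0391).

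Hoxb4, whose overexpression expands mouse blood stem cells, was the most abundant of the 6 Hoxb genes per kilobase of transcript in each population. It was listed at 3.13, 3.96 and 2.37 CPM in Syndecan-2-, at 3.42, 4.23 and 5.24 in Parent and at 7.02, 6.36 and 6.54 in Syndecan-2+. The Syndecan-2+ libraries were the highest and close to each other, and the other populations overlapped. The mean rose from 3.16 ± 0.796 to 6.64 ± 0.339 CPM (SD, n = 3), with a log2 fold change of 0.90 (SE 0.18, BH-adjusted p from limma 0.000907).

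Hoxb3 was listed at 0.714, 0.523 and 2.04 CPM in Syndecan-2-, at 2.00, 2.06 and 2.71 in Parent and at 4.32, 4.48 and 5.69 in Syndecan-2+. All Syndecan-2+ libraries stood above the rest, and the third Syndecan-2- library reached the level of Parent. The log2 fold change of 1.54 (SE 0.23, BH-adjusted p from limma 6.7e-05) was the largest rise among the tested Hox genes on this scale. With a pseudocount of 0.1 CPM Hoxb5 rose more (3.24 against 2.25), and with 5 CPM Hoxa10 did (0.73 against 0.70). The ratio of mean CPM was 4.42, and 7.81 without the third Syndecan-2- library.

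Hoxb5, known as a marker of long-term stem cells from reporter mice, was listed at 0, 0.485 and 0.105 CPM in Syndecan-2-, at 1.23, 0.353 and 1.79 in Parent and at 1.40, 2.67 and 2.31 in Syndecan-2+. The Syndecan-2- libraries held about 0, 9.5 and 2 reads, and all of the second library's value was assigned to a retained intron model (Hoxb5-002), not to the coding one. The groups with and without syndecan-2 did not overlap, while Parent overlapped both. The log2 fold change was 1.38 (SE 0.27, BH-adjusted p from limma 0.000728), and it was 3.24 with a pseudocount of 0.1 CPM and 0.45 with 5 CPM. The ratio of mean CPM was 10.8, and 40.4 without the second Syndecan-2- library.

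Hoxb2 was listed at 0.635, 0.365 and 0.325 CPM in Syndecan-2-, at 0.0874, 0.166 and 0.563 in Parent and at 1.79, 1.85 and 2.07 in Syndecan-2+. The Syndecan-2+ libraries were close to each other and all others were below 1 CPM. The log2 fold change was 1.02 against Syndecan-2- (SE 0.21, BH-adjusted p from limma 0.00134) and 1.21 against Parent (0.000542). Without any one Syndecan-2+ library the gene fell under the minimum and was not tested.

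Hoxb6, whose overexpression expands myeloid precursors in mice, was listed at 0.212, 0.0508 and 0.210 CPM in Syndecan-2-, at 0.0646, 0.706 and 0 in Parent and at 0.917, 0.680 and 1.32 in Syndecan-2+. The Syndecan-2+ libraries were above those of Syndecan-2- and overlapped the second Parent library. An exact two-sided permutation test of the CPM, without pairing, gave p = 0.1 against Syndecan-2-. That is the smallest that 3 against 3 unpaired libraries allow. Against Parent this permutation test gave p = 0.2. With no minimum on CPM, limma called Hoxb6 higher in Syndecan-2+ (log2 fold change 0.76, adjusted p 0.00936).

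Hoxb7 was listed at 0 in every Syndecan-2- library and in 2 of 3 Parent libraries, and the other was at 0.0596 CPM. In Syndecan-2+ it was listed at 0.108, 0.0971 and 0.275 CPM, about 2, 2 and 5 reads. One Syndecan-2+ library was above the floor of 3 reads, so that a difference was not established at this depth, although the exact two-sided permutation test gave its smallest p of 0.1.

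Levels can be compared between genes only per kilobase of transcript. On that scale Hoxa9 led in every population, with a mean of 27.0 CPM per kilobase in Syndecan-2-, 26.1 in Parent cells and 17.7 in Syndecan-2+. Hoxa7 came next with 12.0, 11.4 and 9.99. Hoxa5 (3.51, 3.21 and 4.43) and Hoxa10 (2.10, 2.71 and 4.87) followed, and Hoxa10 stood above Hoxa5 by its mean in Syndecan-2+ alone. The libraries of Hoxa5 and Hoxa10 overlapped in Parent and Syndecan-2+, so that their order there is within the spread, while those of Hoxa9 and Hoxa7, and of Hoxb4 and Hoxb3, did not overlap in any population. The means of Hoxb4 were 1.23, 1.68 and 2.59 CPM per kilobase and those of Hoxb3 0.406, 0.90 and 1.92. The other 4 Hoxb genes had a mean of at most 1.10 CPM per kilobase, the Syndecan-2+ mean of Hoxb5.

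The summed CPM of the 6 Hoxb genes were 5.05 ± 0.347 in Syndecan-2-, 8.23 ± 1.88 in Parent cells and 16.6 ± 1.39 in Syndecan-2+ (SD, n = 3). Those of the 4 Hoxa genes were 79.9 ± 3.58, 78.6 ± 3.47 and 67.4 ± 8.47, and all populations overlapped, through the second Syndecan-2+ library. Without Hoxa9 the Hoxa sum was 34.5 ± 3.82, 33.5 ± 2.81 and 37.7 ± 3.06, with all populations overlapping. Hoxb genes thus held 5.81 to 6.17% of the summed CPM of the 10 genes in Syndecan-2-, 8.30 to 11.7% in Parent cells and 17.6 to 21.2% in Syndecan-2+. Hoxa9 held a mean of 56.9% of the Hoxa sum in Syndecan-2-, 57.4% in Parent cells and 43.8% in Syndecan-2+. These shares follow from the values of the single genes and were given no test. They use CPM not divided by transcript length, so that they compare populations and not the levels of genes or clusters.

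**Figure D2:**
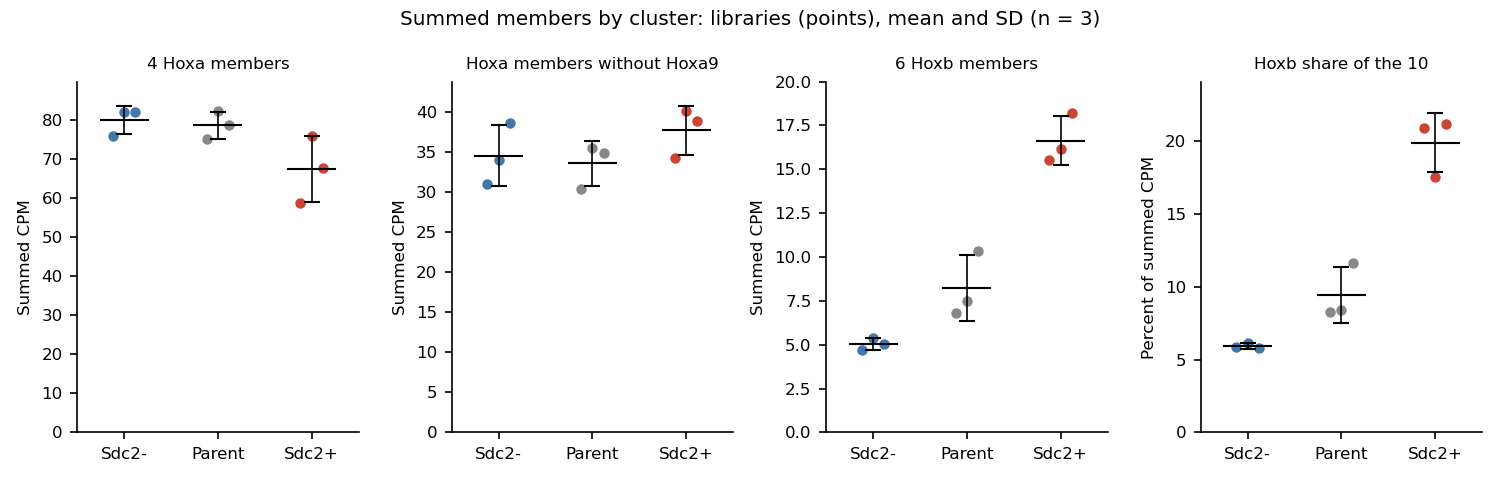
Summed CPM of the Hoxa genes, of the Hoxa genes without Hoxa9 and of the Hoxb genes, and the Hoxb share of the 10 genes in percent, with 1 point per library, the mean and the SD (n = 3). The Hoxb sum and share are separate in the 3 populations, and the Hoxa sum overlaps in all of them, with and without Hoxa9.

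By position, the tested Hoxb genes, from Hoxb2 to Hoxb5, were all higher in cells with syndecan-2, while in the A cluster the fit without the replicate block called Hoxa9 lower and Hoxa10 higher, and Hoxa7 was also called lower with the block, TMM rescaling or quantile normalization. The other listed Hoxa genes tested, Hoxa2, Hoxa3, Hoxa4 and Hoxa6, had log2 fold changes of 0.49, 0.25, 0.30 and -0.05 and none was called (BH-adjusted p from limma 0.160 to 0.897, 0 at an unadjusted p under 0.05). Toward the other end of the B cluster, Hoxb8 and Hoxb9 were below the minimum and listed at 0 in all Syndecan-2- libraries, and all 3 Syndecan-2+ libraries of both genes were at or above the floor. Their Syndecan-2+ means of 0.402 ± 0.221 and 0.628 ± 0.142 CPM (SD, n = 3) were at least 2.57-fold and 4.02-fold higher than the mean floor of the Syndecan-2- libraries. In Parent, Hoxb8 was listed at 0.0646, 0 and 0.357 CPM and Hoxb9 at 0.129, 0.0588 and 0.179.

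**Figure D3:**
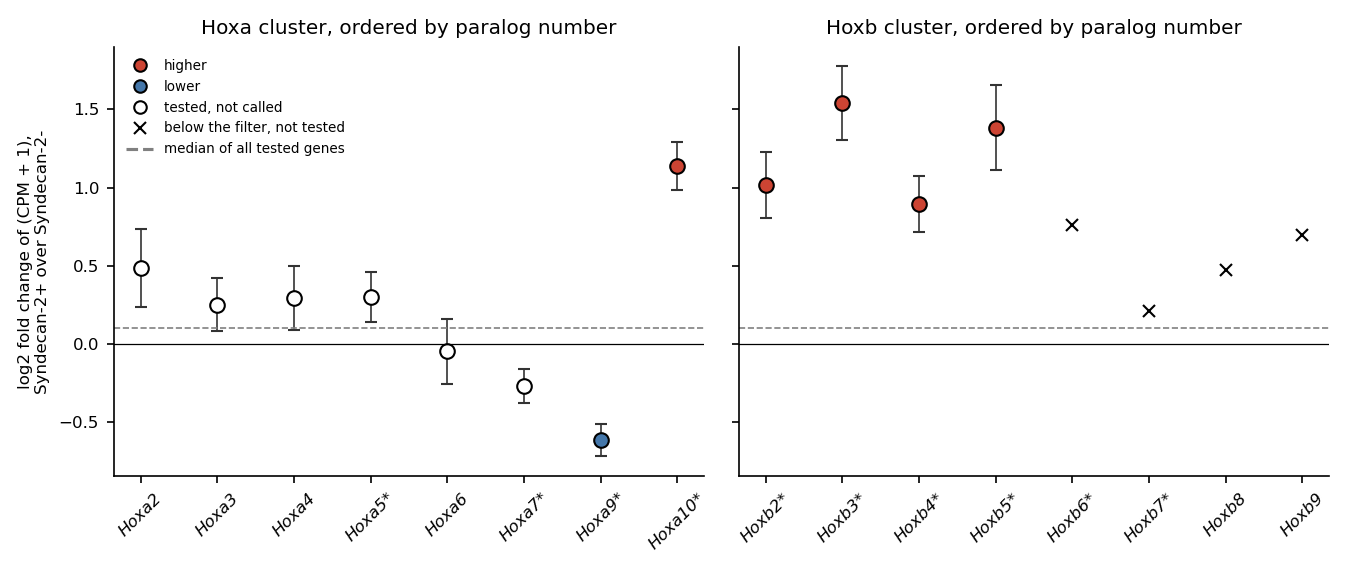
Log2 fold change of CPM + 1 between Syndecan-2+ and Syndecan-2- with its SE from limma for each listed gene of the A cluster (left) and the B cluster (right), in order of paralog number, with an asterisk at each of the 10 genes. Filled circles mark called genes, open circles tested genes that were not called and crosses genes below the minimum, and the dashed line is the median of all tested genes, 0.10.

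Paralog groups 5 and 7 have a gene of the 10 in each cluster. The log2 ratio of Hoxb5 to Hoxa5, with 1 CPM added to each, was -2.73, -2.61 and -2.68 in Syndecan-2- and -1.76, -1.40 and -1.61 in Syndecan-2+. The difference of 1.08 had an exact two-sided permutation p of 0.1, the smallest possible with 3 against 3, and 0.1 after BH adjustment over the 2 ratios. The difference depends on the pseudocount, with 2.90 at 0.1 CPM and 0.25 at 5 CPM. No such difference is given for Hoxb7 and Hoxa7, since a single library of Hoxb7 was above the floor of 3 reads.

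Not every transcript model of a called gene was itself called, and differences between models were not tested. All 25 models matched a transcript of GENCODE M21 by identifier, and their lengths were taken from it. Of the 25, 14 reached the minimum for a test. Of these 7 were called between Syndecan-2+ and Syndecan-2-, against 8.02% of the 31579 transcripts tested. Assignment of reads to overlapping models is an estimate, so the values of single models are less sure than those of genes.

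The main coding model of Hoxa9, Hoxa9-001, was listed at 30.1, 33.0 and 29.9 CPM in Syndecan-2- and at 16.1, 23.3 and 18.6 in Syndecan-2+ (log2 fold change -0.67, BH-adjusted p from limma 0.00910). The noncoding model Hoxa9-004, which begins near Hoxa10, was listed at 4.73, 7.60 and 5.10 and at 2.44, 3.38 and 2.57 CPM (-0.83, adjusted p from limma 0.0432). Both were lower in every Syndecan-2+ library. A shorter coding model, Hoxa9-002, averaged 4.86 CPM in Syndecan-2- and 4.93 in Syndecan-2+ and was not called (0.09, adjusted p from limma 0.922).

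Hoxa10-001, the coding model that starts at the promoter printed above, was listed at 0.145, 0.457 and 1.90 CPM in Syndecan-2-, at 2.14, 1.47 and 2.38 in Parent and at 5.51, 4.53 and 3.05 in Syndecan-2+. The populations with and without syndecan-2 did not overlap (log2 fold change 1.64, BH-adjusted p from limma 0.0174). The noncoding Hoxa10-002 was listed at 3.29, 2.55 and 2.57 and at 2.63, 4.81 and 6.61 CPM, and its populations overlapped (0.52, adjusted p from limma 0.400). The coding model from the distal start, Hoxa10-004, held at most 16.6% of the Hoxa10 value in any library.

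For Hoxa7, 57.8 to 81.1% of the value in each library was assigned to Hoxa7-002, a model annotated as a target of nonsense-mediated decay, so that most of the Hoxa7 value was not in the main coding model (17.5 to 40.2%). Hoxb3-002, which spans the whole Hoxb3 locus, averaged 1.03 CPM in Syndecan-2- and 4.08 in Syndecan-2+ (log2 fold change 1.39, BH-adjusted p from limma 0.0256). The coding models Hoxb5-001 (1.5, adjusted p from limma 0.0126), Hoxb2-001 (1.03, 0.0283) and Hoxb4-001 (0.90, 0.0278) were also called higher. Hoxb2-001 reached 1 CPM only in its Syndecan-2+ libraries, so that its call, counted above, is partly built into the minimum.

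**Figure D4:**
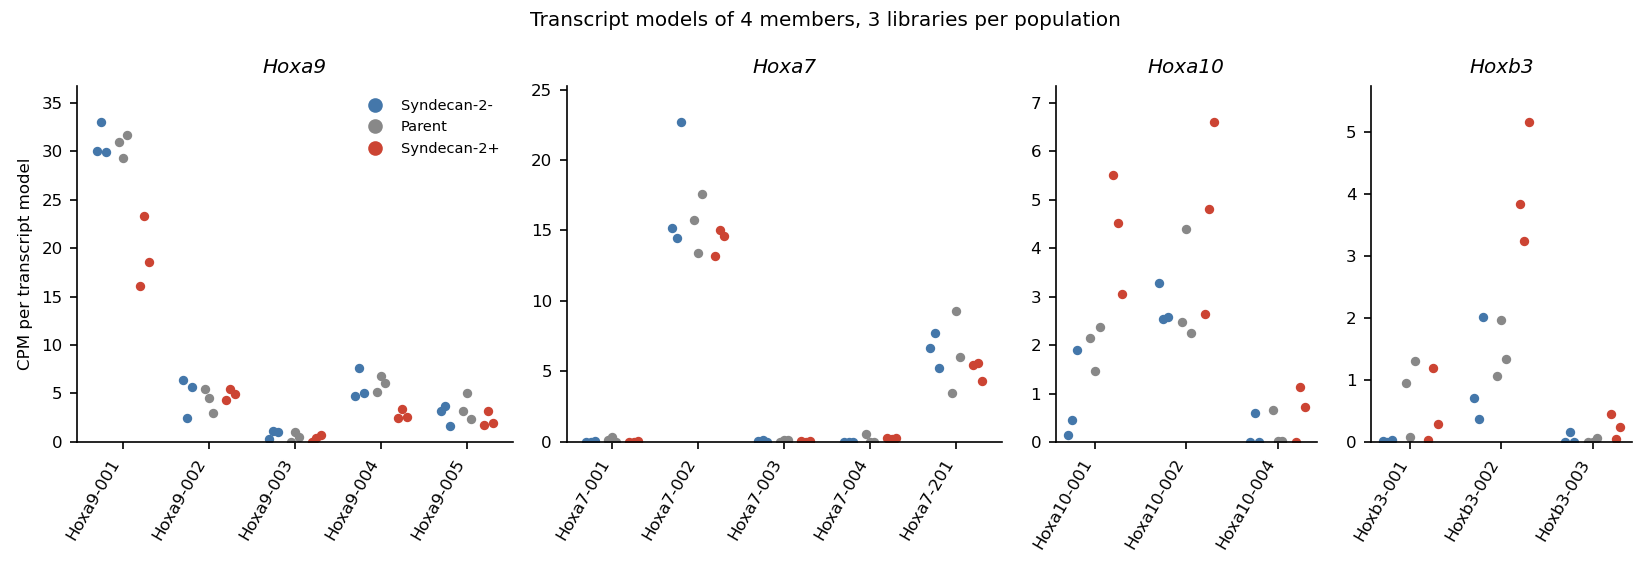
CPM per transcript model of Hoxa9, Hoxa7, Hoxa10 and Hoxb3 in the 9 libraries, with 1 point per library and the populations side by side. The Syndecan-2+ points of Hoxa9-001 lie between 16.1 and 23.3 CPM, below the other 6, and those of Hoxa10-001 lie between 3.05 and 5.51, above the other 6.

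Some models overlap other genes, and the sources used here do not say whether reads were counted by strand. Hoxa5 and Hoxa7 overlap the antisense gene Hoxaas3, and Hoxa5 also overlaps Hoxa3 on its own strand. Hoxb2 and Hoxb3 overlap the antisense gene Hoxb3os, which averaged 0.548 CPM in Syndecan-2- and 1.28 in Syndecan-2+ and was not called (BH-adjusted p from limma 0.119). Hoxb5 and Hoxb6 overlap Hoxb5os, which averaged 0.0521 and 0.152 CPM.

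Against Parent, Hoxa10, Hoxb2, Hoxb3 and Hoxb4 were higher in Syndecan-2+ and Hoxa9 was lower, with a background of 17.2% of tested genes called, 9.9% higher and 7.31% lower. This comparison shares its Syndecan-2+ libraries with the one above. The log2 fold changes were 0.77 for Hoxa10 (BH-adjusted p from limma 0.00186), 0.84 for Hoxb3 (0.0187) and 0.54 for Hoxb4 (0.0461). Hoxb5, at 0.60, was not called (0.154). All Syndecan-2+ libraries of Hoxb3 and Hoxb4 lay above those of Parent, but their calls did not hold when certain single libraries were left out. Without the first or the second Parent library or the third Syndecan-2+ library, Hoxb3 had an adjusted p from limma of 0.0636, 0.0605 and 0.0874. Hoxb4 was not called without the first Syndecan-2-, the first or second Parent or any one Syndecan-2+ library (0.0562 to 0.181). It was also not called with TMM rescaling (0.50, adjusted p from limma 0.0699) or quantile normalization (0.46, 0.0948).

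Between Syndecan-2- and Parent none of the 8 genes was called by limma (3 had an unadjusted p under 0.05), against 2.66% of tested genes, 0.121% higher and 2.54% lower in Syndecan-2-. The largest differences on the log2 scale were -0.78 for Hoxb5 (BH-adjusted p from limma 0.170), -0.70 for Hoxb3 (0.155), -0.37 for Hoxa10 (0.281) and -0.35 for Hoxb4 (0.403). With the replicate block, under which 685 genes or 4.89% were called in place of 373, Hoxb3 was lower in Syndecan-2- (adjusted p from limma 0.0400). It was also lower without the third Syndecan-2- library (adjusted p from limma 0.0178), and Hoxb5 was lower without the second Parent library (-1.08, 0.0333). Hoxa9 differed by 0.01 (adjusted p from limma 0.981).

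Among the cofactors that bind DNA with Hox proteins, 5 of 8 TALE genes considered were tested and 2 were higher in cells with syndecan-2 than in those without, with a median log2 fold change of 0.14 over the 5, and 0.02 with TMM rescaling. Of all tested genes 20.5% were higher and 9.51% lower in this comparison. Meis1, the partner of Hoxa9 in leukemia, was listed at 98.0, 97.8 and 97.2 CPM in Syndecan-2-, at 132, 114 and 123 in Parent and at 194, 176 and 192 in Syndecan-2+. Its populations did not overlap, and it rose (log2 fold change 0.93, BH-adjusted p from limma 1.2e-08) where Hoxa9 fell. Pbx3, another cofactor of Hox proteins, rose from 3.08 ± 0.131 to 7.94 ± 0.575 CPM (1.13, adjusted p from limma 2.1e-05, SD and n = 3 in each). Both were also higher than in Parent, each with a log2 fold change of 0.60, and Meis1 was lower in Syndecan-2- than in Parent. Pbx2, Pbx4 and Pknox1 were not called, with log2 fold changes of 0.14, 0.03 and 0.09 between the cells with and without syndecan-2.

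Of 19 genes listed for the MLL complex and other known regulators of Hox genes, 16 were tested, 5 were higher in cells with syndecan-2 and 0 lower by limma (1, Kdm6b, at an unadjusted p under 0.05), against the same 20.5% and 9.51% of all tested genes. With the replicate block Kdm6b was called lower (-0.18, adjusted p from limma 0.0111). Their median log2 fold change of 0.11 was close to the median of all tested genes, 0.10. Mllt3, an MLL fusion partner that maintains human stem cells, was listed at 12.4, 13.0 and 13.7 CPM in Syndecan-2-, at 25.2, 22.2 and 27.3 in Parent and at 52.2, 52.7 and 66.4 in Syndecan-2+. The populations did not overlap and the log2 fold change was 2.04 (BH-adjusted p from limma 1.65e-10). Kmt2a (MLL), its chromatin tether Psip1, the complex subunit Wdr5 and the elongation factor Aff4 had log2 fold changes of 0.23 to 0.37. With TMM rescaling, Kmt2a, Wdr5 and Aff4 were not called (BH-adjusted p from limma 0.185, 0.0987 and 0.0829) and Kdm6b was called lower (-0.30, 0.00327). The median of the list was then -0.01, and Mllt3 and Psip1 were the genes still higher. With quantile normalization 5 genes of the list were called higher and 0 lower, with a list median of 0.04. On the deposited scale the other 11 were not called, among them Men1 (menin) and Dot1l. Against Parent, Psip1, Mllt3 and Aff4 were higher and Kdm6b, a histone demethylase, was lower. With TMM rescaling Mllt3 alone was higher than in Parent, and with quantile normalization 3 genes of the list were. Mllt3 was the 1 gene of this list called between Syndecan-2- and Parent, lower in Syndecan-2-.

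**Figure D5:**
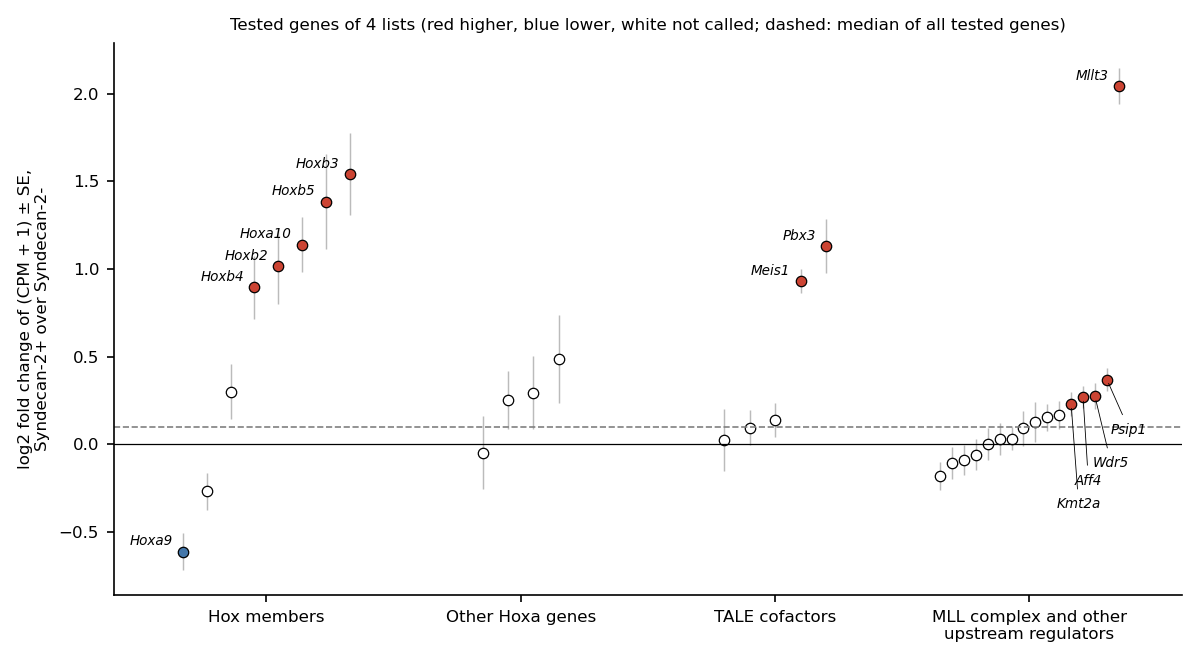
Log2 fold change of CPM + 1 between Syndecan-2+ and Syndecan-2- with its SE for the tested genes among the 10 Hox genes, the other Hoxa genes, the TALE cofactors and the MLL list, each ordered by size. Called genes are filled and named, and the dashed line is the median of all tested genes, 0.10; 2 TALE genes lie at 0.93 and 1.13 and Mllt3 at 2.04, with the rest of the MLL list between -0.18 and 0.37.

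The genes whose pattern over the 9 libraries was most like that of Hoxb3 were Gng11, BC034090 and Adarb1, with a root mean square difference of centred log2(CPM + 1) values of 0.119, 0.186 and 0.187, against a median of 0.669 over all other tested genes. For Hoxa9 they were Ano8, Rgs2 and Tubb6, with 0.0616, 0.0622 and 0.0645 against a median of 0.392. Rgs2 had a mean of 109 CPM in Syndecan-2-, 100.2 in Parent cells and 68.4 in Syndecan-2+, and Gng11 had 2.18, 4.26 and 9.15.

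Genes that mark cell types also differed between the populations. The summed CPM of 7 long-term stem cell markers (Procr, Slamf1, Fgd5, Mecom, Vwf, Hlf and Itga2b) were 104 to 112 for Syndecan-2-, 190 to 217 for Parent and 443 to 496 for Syndecan-2+, and all 7 were higher in cells with syndecan-2, as Hoxa10 and 4 Hoxb genes were. Those of 5 multipotent progenitor markers (Cd34, Flt3, Cd48, Dntt and Satb1) were 1120 to 1216, 886 to 943 and 101 to 147, and all 5 were lower in Syndecan-2+, as Hoxa9 was. Those of 7 plasma cell markers were 39.3 to 50.3, 176 to 209 and 632 to 883, with 5 higher, 1 lower (Sdc1) and Igha at 0 in every Syndecan-2- library. With the replicate block Mzb1 was also called higher (adjusted p from limma 0.0478). Of 9 lineage markers, 6 were listed and 2 of the 3 tested were lower, with sums of 18.4 to 24.4, 13.5 to 18.7 and 4.76 to 7.13 CPM. The 6 endothelial markers summed to 64.4 to 71.5, 64.9 to 70.2 and 63.0 to 68.5, a sum that holds opposite calls, with Kdr, Stab2 and Tek called higher and Pecam1, the most abundant, called lower in the Syndecan-2+ libraries (against Syndecan-2-). Of 6 stromal markers 3 were listed, with sums of 30.0 to 34.2, 23.7 to 32.2 and 10.6 to 29.0 CPM. Pdgfrb alone was tested and was called lower (mean 32.1 CPM in Syndecan-2- and 8.74 in Syndecan-2+). Cxcl12 and Col1a1, both below the minimum, went the other way by their means, from 0.0699 to 0.945 CPM and from 0.0683 to 7.12. The Col1a1 mean and the sum of 29.0 rested on the third Syndecan-2+ library, with Col1a1 at 0.162 and 0.154 CPM in the first and second. The part of all these markers in the Hox results was not tested. In these bulk libraries, fewer cells of a type and less RNA per cell cannot be told apart.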

How the data were processed

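The authors deposited 1 table of CPM values per Ensembl transcript with 1 column per library, and an offset of 0.0001 stands in place of 0, per the file headers and values. STAR, Bowtie2 and build GRCm38 are named in the submitters' processing notes, without roles. Of the counting program, the CPM denominator and strand use, none is given in the sources used here. Listed values sum to 51.5 to 54.5% of the CPM total, and 12988 to 13612 genes per library reached 1 CPM. Some transcript values are fractions of a read, such as 0.00541 CPM of Hoxa10-004, so no count test was run.

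The offset was subtracted and CPM were summed per symbol. The 13997 genes that reached 1 CPM in 3 or more of the 9 libraries entered limma 3.58.1 in R 4.3.3 (1 fit of all libraries on log2 of CPM plus 1, eBayes with trend, BH threshold 0.05). Of the genes below that minimum, Hoxb6 and Hoxb7 alone had exact permutation tests. The analysis was tested on simulated data. Python 3.11.15, pandas 2.3.3, scipy 1.17.1 and matplotlib 3.10.9 were used for tables and figures. Libraries were grouped by the sorted population in the labels. The 10 genes and all lists were chosen with earlier results of these data known. All 10 genes are named, as are listed genes with a call and genes of both clusters, apart from 2 genes of the lists that are not reported here; likeness is given for the largest rise and fall at a pseudocount of 1 CPM, with the 3 nearest genes by root mean square difference. Menin and Dot1l are named as examples, chosen after their values were seen.

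Replicate pairs differed by 7.64 to 23.9 times counting noise (squared difference) and 0 pairs were identical. Correlations of the deviations from population means were 0.117 to 0.259 for libraries with the same number (9 pairs) and for others -0.206 to 0.00483 (18 pairs). The numbers were therefore taken to pair samples. The main fit and the exact permutation tests left this pairing out. For limma, the result with the replicate block is given where it changes a reported call. Alternatives were pseudocounts of 0.1 and 5, no minimum, TMM rescaling, quantile normalization, eBayes without trend, the 6 libraries compared alone, the replicate block, each library left out, and transcripts in place of genes. Of the 25 transcript models, 21 have the same version in GENCODE M21 and 24 the same coordinates.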

Additional observations from a re-analysis of the deposited data

How the results depend on the processing

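Hoxa9 stayed lower and Hoxa10, Hoxb3, Hoxb4 and Hoxb5 stayed higher in cells with syndecan-2 than in those without it when any library was left out and under every other setting, except that the most abundant Hoxa10 transcript was not called (0.52, adjusted p from limma 0.400). The number of Hox genes called higher in that comparison was 4 to 6, with 4 without any one Syndecan-2+ library, where Hoxb2 missed the minimum, and 6 with no minimum, which added Hoxb6. The number called lower was 2 with TMM rescaling, quantile normalization and the replicate block, through Hoxa7, and 1 to 2 with a library left out. Against Parent, 4 were higher; the number was 2 with a pseudocount of 0.1, 0 with transcripts and 1 to 4 with a library left out. Between Syndecan-2- and Parent 1 was lower with the replicate block, and 0 to 1 with a library left out. The block changed no call of these genes other than those of Hoxa7, Hoxa5 and Hoxb3 given above, and the paralog ratios had no blocked fit.

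Genes called numbered 2533 with transcripts against 4205 with genes in Syndecan-2+ against Syndecan-2-, 964 against 2409 in Syndecan-2+ against Parent, and 42 against 373 in Syndecan-2- against Parent, where the replicate block gave 685 and leaving out a library 218 to 369. In this last comparison, differences of genes that were not called changed sign: with a library left out, Hoxa5 ranged from -0.029 to 0.200 on the log2 scale, Hoxa7 from -0.0071 to 0.162 and Hoxa9 from -0.029 to 0.0397, with Hoxa5 and Hoxa9 lowest without the second and Hoxa7 without the third Syndecan-2- library, and Hoxa9 was -0.013 without the third Parent library. Hoxb2 changed to -0.11 with transcripts. The causes were not tested. Fold changes of low genes depend on the pseudocount: from 5 to 0.1 CPM, the Syndecan-2+ over Syndecan-2- value was 0.34 to 1.93 for Hoxb2, 0.70 to 2.25 for Hoxb3 and 0.52 to 1.08 for Hoxb4. Depth limits Hoxb6 and Hoxb7, whose Syndecan-2- libraries held at most 4 and 0 reads.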

Other observations

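Of 16 noncoding RNA genes of the Hox clusters on the list, Hoxaas2, Hoxaas3 and Hoxb3os were tested and none was called in any of the 3 comparisons with limma (2 were higher in Syndecan-2+ than Syndecan-2- cells at an unadjusted p under 0.05, 0 in the others). Hoxaas2, antisense within the A cluster, averaged 0.410 ± 0.277 CPM for Syndecan-2-, 0.883 ± 0.176 for Parent and 0.990 ± 0.405 for Syndecan-2+ (SD, n = 3). Hoxaas3 averaged 0.841 ± 0.479, 1.13 ± 0.772 and 0.741 ± 0.143 CPM. Hoxb5os was below the minimum. The 9 Hoxc and 9 Hoxd genes looked for were not listed in the table and are not analysed here.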
